A study of Mus musculus with 6 samples.

Results

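The 37 genes described here carry glucose into the cell, break it down to pyruvate and lactate, control the entry of pyruvate into the mitochondrion, and store glucose as glycogen. They were chosen by name and role, with earlier results of these data known, and each mouse symbol matched 1 Ensembl gene. All 37 were among the 43629 genes listed in the count tables, and all 37 passed the filter on low counts that left 15470 genes for testing. They comprised 3 glucose transporters, 6 enzymes of the upper part of glycolysis, 4 regulators of the PFKFB family, 11 enzymes of the lower part, 8 genes of lactate and pyruvate handling, and 5 genes of glycogen synthesis and breakdown.

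Expression was measured by RNA-Seq of poly(A) RNA from primary cardiomyocytes of CD-1 mouse embryos at embryonic day 13.5, whose ventricles were pooled within a litter. The cells were transfected in culture with 12 nM siRNA and collected after 72 h, when they were stained for VCAM1 and sorted on magnetic beads. A first group of 3 cultures received the AllStars negative control siRNA, here called negative siRNA, and a second group of 3 cultures received a pool of 4 siRNAs against DNMT1, the enzyme that copies CpG methylation to the new DNA strand. The comparison asks how a lower level of DNMT1 alters gene expression in embryonic cardiomyocytes. The treatment tag of the second group names DNMT3a siRNA, while its titles and the study's methods name DNMT1. Values are given as CPM, counts scaled to the size of each library by edgeR's TMM method. The CPM of Dnmt1 was 159, 127 and 133 with negative siRNA (replicates 1, 2 and 3) and 35.6, 36.2 and 30.7 with DNMT1 siRNA, a log2 fold change (log2FC, DNMT1 siRNA over negative siRNA) of -2.03 (SE 0.11, edgeR adjusted p = 1.9e-04). Some Dnmt1 transcript thus remained in every culture. Nothing in the sources used here says whether the 3 cultures of a group came from separate litters, so that the p-values measure the spread between these cultures, which may be technical.

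Glycolysis converts glucose to pyruvate in the cytosol and yields ATP without oxygen. The embryonic heart relies on it more than the adult heart, which draws most of its energy from the oxidation of fatty acids. Several steps are run by isozymes, enzymes from different genes that catalyze the same reaction, with a muscle form (such as the products of Pgam2, Eno3 and Pygm) beside forms found in most tissues. Insulin and contraction move the muscle and fat glucose transporter encoded by Slc2a4 to the cell surface, whereas the transporter encoded by Slc2a1 supplies the basal uptake of many cell types. Hypoxia, through the factor HIF1, is a known inducer of many genes of the pathway.

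Counts on genes ranged from 27852412 to 35896018 per library with negative siRNA and from 13739561 to 16186310 with DNMT1 siRNA. Of the 10 cardiomyocyte markers examined, 10 were detected and 8 were called higher with DNMT1 siRNA, and their summed level was between 1869 and 2452 CPM with negative siRNA and between 4254 and 5171 CPM with DNMT1 siRNA. The study cites its earlier flow cytometry, in which nearly all sorted cells were cardiomyocytes. RNA of other cell types was present all the same, and the summed fibroblast and mesenchymal markers exceeded the summed cardiomyocyte markers in every culture. The 8 fibroblast and mesenchymal markers summed to between 36082 and 55676 CPM with negative siRNA and to between 27401 and 29238 CPM with DNMT1 siRNA, and 3 of them (Col1a1, Col1a2 and Dcn) were called lower. Of 7 endothelial markers, 2 of the 6 tested (Kdr and Emcn) were called higher and Cldn5 was near 0, with a summed level of 132 to 169 CPM against 196 to 199 CPM. Another 1 of the 6 was lower at an edgeR adjusted p below 0.05 (log2FC -0.35), and DESeq2 called 3 higher and 0 lower. The 6 smooth muscle and pericyte markers summed to between 5282 and 7887 CPM against between 4400 and 4595 CPM, and 1 of them (Pdgfrb) was called lower by edgeR. Another 1 of them went the other way (log2FC 1.10), and DESeq2 called 1 higher and 1 lower. For the 5 epicardial markers the sums were 1295 to 1484 CPM and 1391 to 1448 CPM, with 0 called by edgeR or DESeq2 and 2 lower at an unadjusted p below 0.05. The 6 macrophage markers summed to at most 27.9 CPM, with 0 called by edgeR and 4 called lower by DESeq2 and at an unadjusted edgeR p below 0.05, and the 6 erythroid markers to at most 2.89 CPM. In such bulk samples, a change in the number of cells of a type cannot be told apart from a change in RNA per cell.

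Negative siRNA replicate 2 stood apart from the other 2 negative siRNA cultures in these genes. Of the 37 genes, 19 (51.4%) were more than 1.5 times as high in replicate 2 as in the mean of replicates 1 and 3, compared with 7.79% of all genes tested. The median of this ratio was 1.53 for the 37 genes and 1.00 for all genes. In no other culture did any of the 37 exceed 1.5 times the mean of the others in its group. The largest ratios were those of Slc16a3, the lactate exporter (4.43), Pdk1, a kinase that inhibits pyruvate dehydrogenase (3.36), Aldoc, an aldolase isozyme (2.95), and Pfkl, a phosphofructokinase isozyme (2.71). For 13 of the 37 genes, all 3 DNMT1 siRNA cultures lay above negative siRNA replicates 1 and 3 and below replicate 2, which was true of 2.62% of all genes. Among 22 regulators and targets of hypoxia and MYC signalling, 11 were also above 1.5 times in replicate 2, among them Bnip3, a mitophagy receptor, at 7.28, 51.6 and 12.3 CPM in negative siRNA replicates 1, 2 and 3 and at 15.4, 14.2 and 14.2 CPM in the DNMT1 siRNA replicates. The main results are therefore given with and without this culture.

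**Figure D1:**
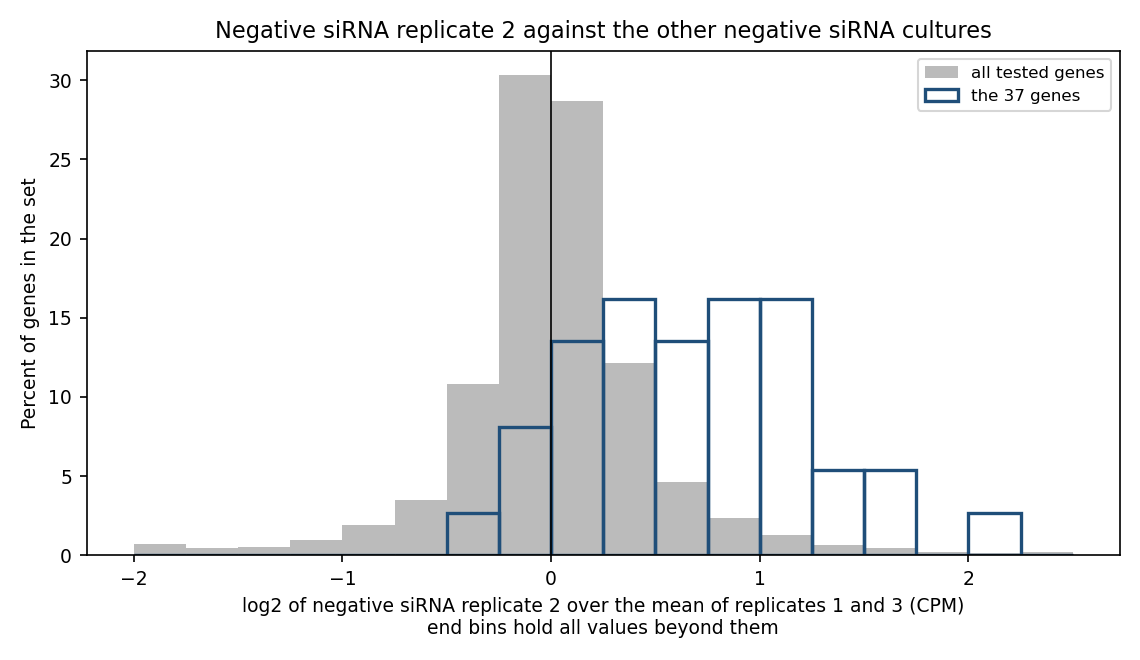
Distribution of the log2 ratio of negative siRNA replicate 2 to the mean of replicates 1 and 3 (x axis, CPM, bins of 0.25), as a percent of the genes in each set (y axis). Grey bars stand for all genes tested and outlined bars for the 37 genes, whose median ratio of 1.53 lies to the right of the 1.00 of all genes.

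By edgeR's quasi-likelihood test, 3 of the 37 genes were called higher with DNMT1 siRNA (FDR below 0.05 and fold change above 1.5), against 4.26% of all genes tested, and 0 were called lower, against 2.23%. The 3 genes were Pgam2, Eno3 and Pygm, the muscle forms of phosphoglycerate mutase, enolase and glycogen phosphorylase. Of the 37, 12 were higher and 0 lower at an unadjusted p below 0.05. The share of all genes at that limit was not counted, here or below, so such counts have no baseline. DESeq2 called 4 of the 37 higher and 0 lower, with 646 higher and 495 lower among all genes. It was run on all 43629 listed genes without the filter used for edgeR. How many of these received an adjusted p was not counted, so DESeq2 counts have no share of all genes beside them, here or elsewhere. Without a limit on the fold change, 5 were past the FDR of 0.05 as higher, against 6.81% of all genes, and 0 as lower, against 5.65%. The additional 2 were Hk1 and Slc16a1. In 11 of the 37 genes all 3 DNMT1 siRNA cultures were above all 3 negative siRNA cultures, against 18.3% of all genes, and in 0 were they all below, against 17.7%. The median log2FC was 0.03 for the 37 genes and -0.0049 for all genes.

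Without negative siRNA replicate 2, 8 of the 37 were called higher, against 5.42% of all genes, and 0 lower, against 2.78%, with the additional genes Slc2a4, Hk1, Slc16a3, Pdk1 and Pdk2. In that fit 18 of the 37 were past the FDR alone as higher, against 9.48% of all genes. All 3 DNMT1 siRNA cultures were above negative siRNA replicates 1 and 3 in 26 of the 37, against 24.1% of all genes. The median log2FC became 0.34, against 0.0010 for all genes, and 34 of the 37 (91.9%) had a positive log2FC, against 50.1%, where in all 6 cultures 21 of the 37 (56.8%) had one, against 49.3%. Replicate 2 was singled out because these same genes were high in it. Leaving it out lowers their control level more than that of other genes, so these counts are no separate evidence of a rise. The calls also depended on the DNMT1 siRNA cultures, with 0, 1 and 2 of the 37 called without replicate 1, 2 and 3 of that group, when the number of all genes called higher went from 659 to 316, 255 and 314.

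**Figure D2:**
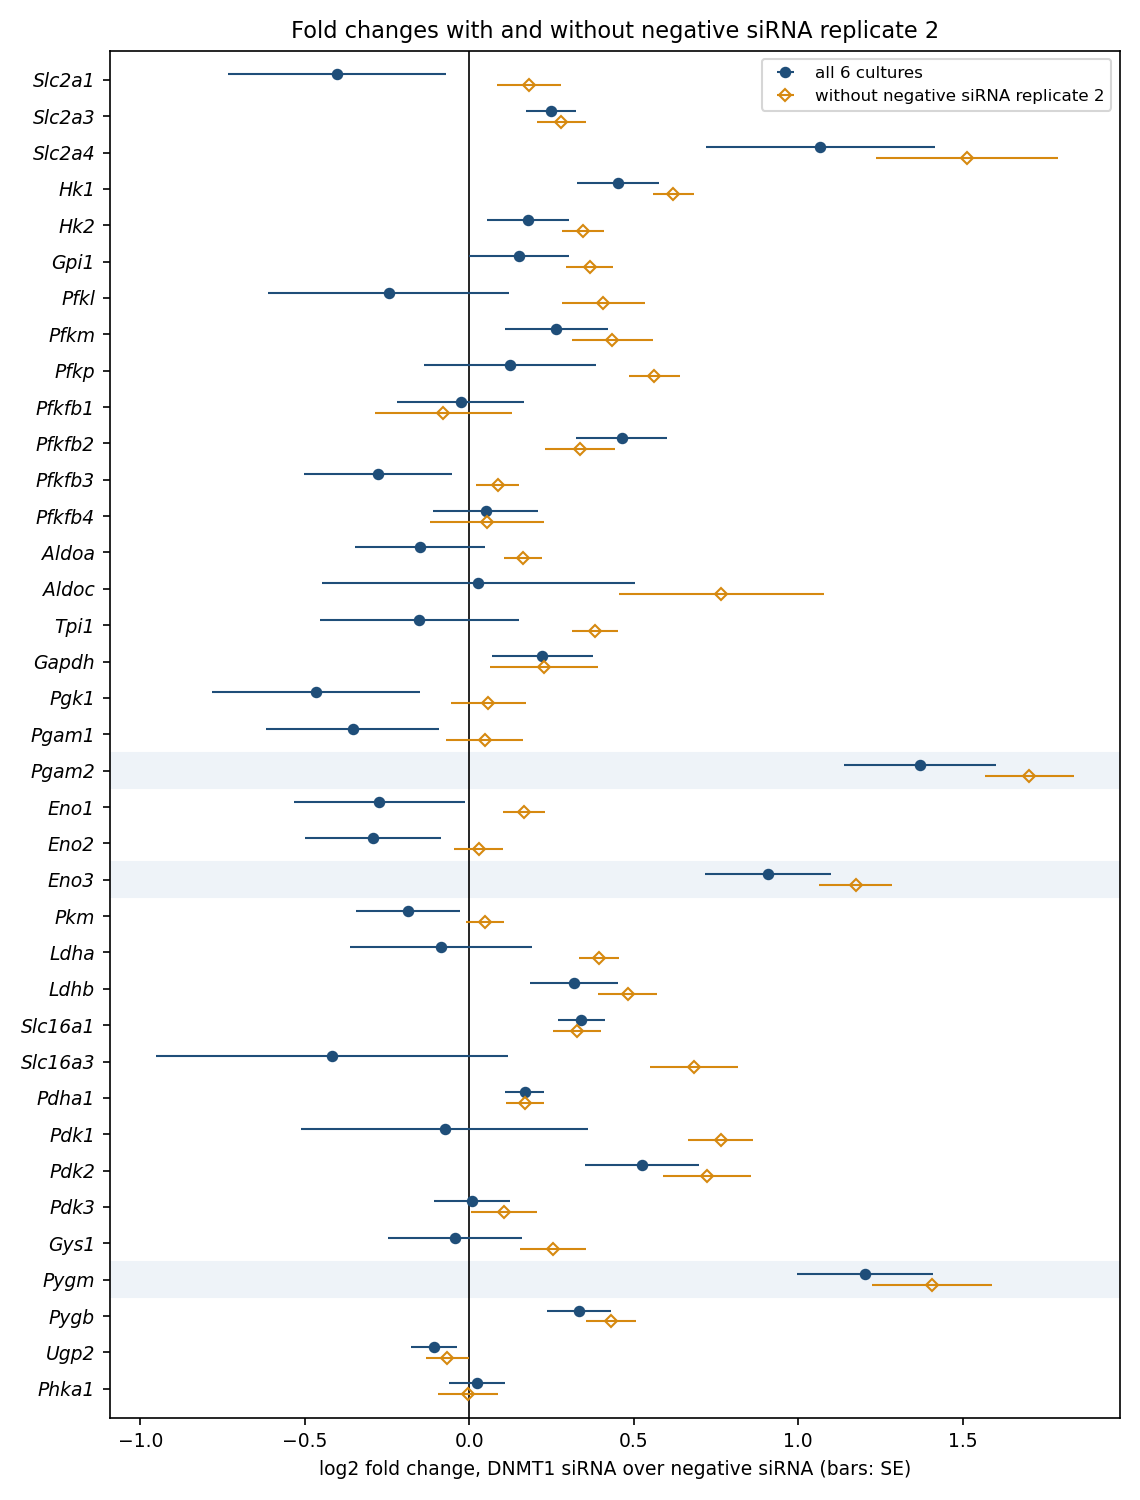
Log2FC of each of the 37 genes, DNMT1 siRNA over negative siRNA, with its SE as a bar (x axis), in order of role (y axis). Filled circles are fits to all 6 cultures, open diamonds fits without negative siRNA replicate 2, and shaded rows the 3 genes called, of which Pgam2 is highest at 1.37 in all 6 cultures.

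The promoters of these 3 genes are shown because DNMT1 acts on CpG sites and the 3 genes changed together. Each line holds the 250 bases before a RefSeq transcription start (GRCm38.p6), 5′ to 3′ on the strand of the gene, with every CG dinucleotide in capitals.
Pgam2, chr11:5803797-5804046, minus strand: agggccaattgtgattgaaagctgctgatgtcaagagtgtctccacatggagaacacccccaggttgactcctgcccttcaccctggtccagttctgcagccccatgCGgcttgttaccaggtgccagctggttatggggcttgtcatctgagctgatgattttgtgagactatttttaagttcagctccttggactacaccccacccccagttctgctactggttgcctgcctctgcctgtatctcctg
Eno3, chr11:70656926-70657175, plus strand: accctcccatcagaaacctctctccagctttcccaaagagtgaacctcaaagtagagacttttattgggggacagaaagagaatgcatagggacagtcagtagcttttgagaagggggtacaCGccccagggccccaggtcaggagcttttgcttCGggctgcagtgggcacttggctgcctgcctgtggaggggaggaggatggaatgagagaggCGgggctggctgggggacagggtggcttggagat
Pygm, chr19:6384158-6384407, plus strand: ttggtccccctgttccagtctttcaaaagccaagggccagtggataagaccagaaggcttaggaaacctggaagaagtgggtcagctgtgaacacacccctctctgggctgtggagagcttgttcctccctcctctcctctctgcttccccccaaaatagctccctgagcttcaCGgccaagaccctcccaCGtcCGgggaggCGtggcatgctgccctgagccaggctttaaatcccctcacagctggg

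The same stretch held 1, 3 and 4 CG dinucleotides for Pgam2, Eno3 and Pygm. The promoters of Pgam1 and Pygb, the isozymes of Pgam2 and Pygm in other tissues, held 22 and 17 and are shown for comparison.
Pgam1, chr19:41911621-41911870, plus strand: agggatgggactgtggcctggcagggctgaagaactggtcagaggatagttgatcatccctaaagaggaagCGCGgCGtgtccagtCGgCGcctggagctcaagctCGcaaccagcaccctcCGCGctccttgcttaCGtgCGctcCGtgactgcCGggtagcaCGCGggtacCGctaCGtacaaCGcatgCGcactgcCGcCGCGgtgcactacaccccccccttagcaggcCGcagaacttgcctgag
Pygb, chr2:150786546-150786795, plus strand: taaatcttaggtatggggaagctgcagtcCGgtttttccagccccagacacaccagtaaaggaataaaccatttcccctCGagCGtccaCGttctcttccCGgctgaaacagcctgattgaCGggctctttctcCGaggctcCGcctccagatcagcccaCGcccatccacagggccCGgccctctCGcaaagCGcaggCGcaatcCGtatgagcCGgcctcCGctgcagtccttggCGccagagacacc

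For Eno1, the widely expressed counterpart of Eno3, RefSeq lists 3 starts with 9, 21 and 19 CG dinucleotides. Over the 35 of the 37 genes with an entry, the 55 promoters had a median of 13 (quartiles 5.5 and 19.0), compared with a median of 6 (quartiles 2.0 and 16.0) over 32851 promoters in all. Of the 55 member promoters 21 (38.2%) had at most 10 CG dinucleotides, as had 64.4% of all promoters. Low numbers were not particular to the 3 called genes. Among members not called, the starts of Pfkm had 2, 6, 10 and 3, those of Aldoc 5 and 3, and those of Hk1 1 and 14. No entry was found for Slc2a3 and Slc2a4. Methylation of these promoters was not measured in the files used here.

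The level of Pgam2 (chr11:5801640-5803733, minus strand, GRCm38), which turns 3-phosphoglycerate into 2-phosphoglycerate in muscle, was 11.1, 18.8 and 9.99 CPM in the 3 negative siRNA cultures. In the DNMT1 siRNA cultures it was 40.0, 32.7 and 30.2 CPM. All 3 DNMT1 siRNA cultures were above all negative siRNA cultures, and negative siRNA replicate 2 was the highest of its group. The log2FC was 1.37 (SE 0.23, edgeR adjusted p = 0.0093), and 1.70 without negative siRNA replicate 2 (adjusted p = 1.4e-04). It stayed past both limits in 5 of the 6 fits that left out 1 culture, and missed the adjusted p limit without DNMT1 siRNA replicate 1 (adjusted p = 0.051).

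Pygm (chr19:6384399-6398459, plus strand) releases glucose 1-phosphate from muscle glycogen. It was at 16.4, 28.8 and 23.5 CPM with negative siRNA and at 62.5, 51.5 and 43.5 CPM with DNMT1 siRNA, again without overlap. Its log2FC was 1.20 (SE 0.21, edgeR adjusted p = 0.0099), and 1.41 without negative siRNA replicate 2 (adjusted p = 0.0013). Of the 6 fits with 1 culture left out, 4 kept the call.

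Eno3 (chr11:70657202-70662513, plus strand), the enolase of muscle, was at 37.1, 61.7 and 39.7 CPM with negative siRNA. With DNMT1 siRNA it was at 98.4, 86.3 and 75.1 CPM, and the lowest of these was above the highest negative siRNA culture. The log2FC was 0.91 (SE 0.19, edgeR adjusted p = 0.022), and 1.17 without negative siRNA replicate 2 (adjusted p = 2.5e-04). This call was kept in 2 of the 6 fits with 1 culture left out, with adjusted p values of 0.091, 0.096 and 0.056 without DNMT1 siRNA replicates 1, 2 and 3 and of 0.053 without negative siRNA replicate 3.

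Of the 3 glucose transporters 0 were called by edgeR, with 2 higher and 0 lower at an unadjusted p below 0.05, and DESeq2 called 1 higher (Slc2a4). Slc2a4, the insulin-responsive transporter GLUT4 of heart, skeletal muscle and fat, had few counts, with 81, 208 and 121 raw counts in the negative siRNA libraries and 174, 129 and 105 in the smaller DNMT1 siRNA libraries. Scaled, this came to 2.18, 6.60 and 4.33 CPM with negative siRNA and 10.7, 8.66 and 7.91 CPM with DNMT1 siRNA. The groups did not overlap, but the log2FC of 1.07 (SE 0.35) missed the limit with an edgeR adjusted p of 0.083. It was past both limits without negative siRNA replicate 2, at 1.51 (SE 0.28, adjusted p = 0.0069), and with DESeq2, at 1.04 (adjusted p = 0.017). Slc2a1, the basal transporter GLUT1, was at 69.6, 197 and 88.0 CPM with negative siRNA and at 92.6, 87.6 and 87.8 CPM with DNMT1 siRNA. Its log2FC was -0.40 (SE 0.33, adjusted p = 0.46) in all cultures and 0.18 (SE 0.10, adjusted p = 0.24) without negative siRNA replicate 2. Slc2a3, the high-affinity transporter GLUT3, was at 58.9, 66.3 and 65.5 CPM and at 75.2, 72.4 and 78.9 CPM, a log2 difference of 0.25 (SE 0.08, adjusted p = 0.068) in all cultures and of 0.28 (adjusted p = 0.034) without replicate 2.

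Per kilobase of annotated exon, Slc2a4 was the lowest of the 3 transporters, at 1.26 ± 0.636 CPM per kb (SD, n = 3) with negative siRNA and 2.62 ± 0.423 with DNMT1 siRNA. Slc2a1 was the highest, at 33.7 ± 19.6 and 25.5 ± 0.806 CPM per kb. Within a library, the count ratio of Slc2a4 to Slc2a1 was 0.0313, 0.0336 and 0.0493 with negative siRNA and 0.116, 0.0989 and 0.0901 with DNMT1 siRNA. This is a difference of 1.44 on the log2 scale, with no overlap, and 1.37 without negative siRNA replicate 2.

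**Figure D3:**
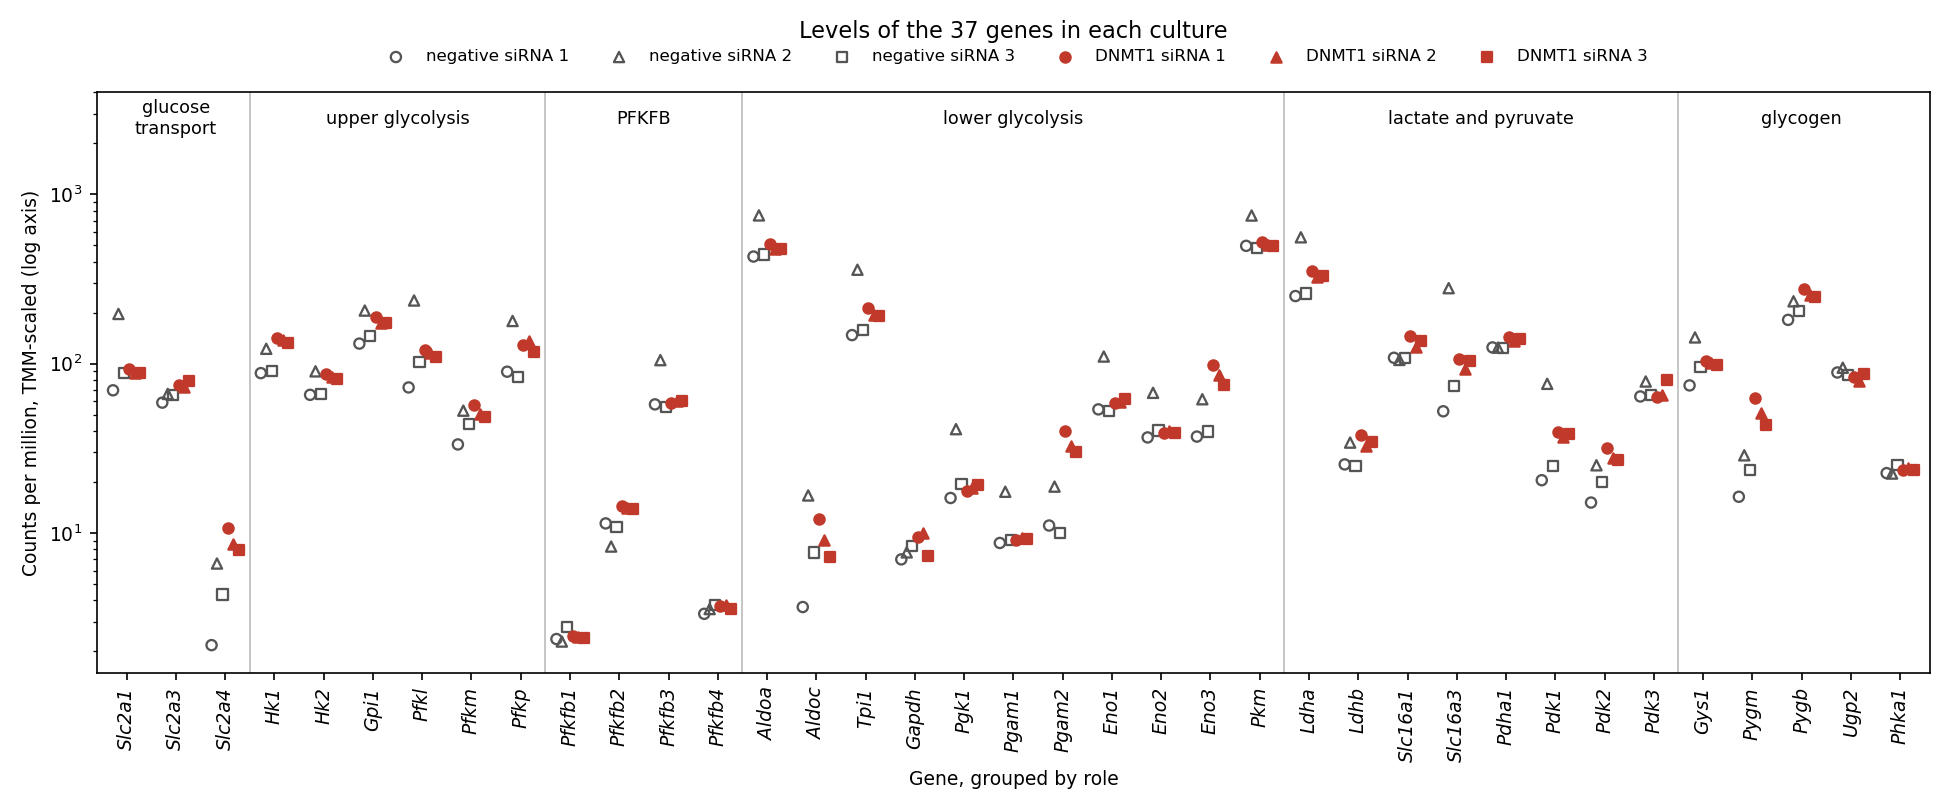
Level of each of the 37 genes (x axis, grouped by role) in CPM on a log axis (y axis). Each point is 1 culture, open grey for negative siRNA and filled red for DNMT1 siRNA, with a triangle for replicate 2. The open triangle of negative siRNA replicate 2 is the highest of the 6 points in 19 of the 37 genes.

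Among the enzymes of the upper part of glycolysis, the 2 hexokinases trap glucose in the cell as glucose 6-phosphate. Hk1 was at 88.0, 122 and 90.6 CPM with negative siRNA and at 142, 137 and 133 CPM with DNMT1 siRNA. Its groups did not overlap, and its log2FC of 0.45 (SE 0.12, edgeR adjusted p = 0.048) passed the adjusted p limit and not the fold limit. Without negative siRNA replicate 2 it was 0.62 (SE 0.06, adjusted p = 3.1e-04). Hk2, the isozyme of insulin-sensitive tissues, was at 65.5, 90.1 and 66.3 CPM and at 86.4, 83.1 and 81.5 CPM, with a log2FC of 0.18 (SE 0.12, adjusted p = 0.38), or 0.34 (adjusted p = 0.0071) without replicate 2. The log2 ratio of Hk2 to Hk1 was the steadiest of the ratios measured. It was -0.43, -0.44 and -0.45 with negative siRNA and -0.72, -0.72 and -0.70 with DNMT1 siRNA, so that Hk2 was lower relative to Hk1 in all 3 DNMT1 siRNA cultures by 0.27 on the log2 scale, with or without negative siRNA replicate 2 (0.28).

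The other 4 enzymes of this part showed differences that depended on negative siRNA replicate 2. Pfkl, Pfkm and Pfkp encode the liver, muscle and platelet subunits of phosphofructokinase, the main control point of the pathway. Pfkl was at 72.4, 236 and 102 CPM with negative siRNA and at 120, 116 and 110 CPM with DNMT1 siRNA, and its log2FC of -0.24 (SE 0.37, adjusted p = 0.70) became 0.41 (SE 0.13, adjusted p = 0.057) without replicate 2. Pfkp was at 89.7, 179 and 83.4 CPM and at 129, 136 and 118 CPM, with log2FC values of 0.12 (adjusted p = 0.79) and 0.56 (adjusted p = 0.0017). Pfkm was at 33.4, 52.8 and 43.8 CPM and at 57.2, 50.4 and 48.4 CPM, with log2FC values of 0.27 (adjusted p = 0.30) and 0.43 (adjusted p = 0.041). Gpi1, which turns glucose 6-phosphate into fructose 6-phosphate, had log2FC values of 0.15 (adjusted p = 0.55) and 0.37 (adjusted p = 0.0091). Per kilobase of annotated exon with DNMT1 siRNA, Pfkl was at 17.3 ± 0.788, Pfkm at 15.6 ± 1.38 and Pfkp at 9.54 ± 0.693 CPM per kb (SD, n = 3). This order depends on the length used. All annotated exons came to 6675, 3340 and 13401 bases for Pfkl, Pfkm and Pfkp. Their protein-coding transcripts held 3734, 3283 and 4561 distinct 75-base windows.

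The PFKFB enzymes make and remove fructose 2,6-bisphosphate, the activator of phosphofructokinase. Of the 4, 0 were called by edgeR or DESeq2, and 1 (Pfkfb2, the heart form) was higher at an unadjusted p below 0.05. Pfkfb2 was at 11.4, 8.32 and 10.9 CPM with negative siRNA and at 14.5, 14.0 and 13.8 CPM with DNMT1 siRNA, a log2 difference of 0.46 (SE 0.14, edgeR adjusted p = 0.065) without overlap. It shared 17.4% of its annotated exon bases with a second gene model on the same strand, and 23.6% of its 75-base windows also occurred in other transcripts. Pfkfb3 was the most abundant per kilobase, at 9.60 ± 3.71 CPM per kb (SD, n = 3) with negative siRNA and 7.92 ± 0.117 with DNMT1 siRNA, with a log2FC of -0.28 (SE 0.22) that became 0.09 without negative siRNA replicate 2. Pfkfb1 and Pfkfb4 stayed between 2.29 and 3.76 CPM in all 6 cultures.

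In the lower part of glycolysis, 2 of 11 genes were called higher, Pgam2 and Eno3, and 10 of the 11 were above 1.5 times in negative siRNA replicate 2, with Gapdh the exception. The remaining 9 genes had log2FC values between -0.47 (Pgk1) and 0.22 (Gapdh) in all cultures, and between 0.03 (Eno2) and 0.77 (Aldoc) without replicate 2. Aldoa, the aldolase of muscle and the most abundant of the 37 per kilobase, was at 429, 751 and 441 CPM with negative siRNA and at 506, 477 and 479 CPM with DNMT1 siRNA. Its log2FC was -0.15 (SE 0.20, adjusted p = 0.66), and 0.16 (SE 0.06, adjusted p = 0.092) without replicate 2. Tpi1, which interconverts the triose phosphates, was at 147, 359 and 159 CPM and at 213, 194 and 191 CPM, with log2FC values of -0.15 (adjusted p = 0.78) and 0.38 (adjusted p = 0.0070). Pkm, the pyruvate kinase of the last step, was at 497, 750 and 483 CPM and at 523, 502 and 495 CPM, with log2FC values of -0.19 (adjusted p = 0.47) and 0.05 (adjusted p = 0.62). The counts are per gene and do not separate the muscle and embryonic splice forms of Pkm.

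Counts of some genes of this part are uncertain, since reads that mapped to more than 1 place were not counted. Of the 75-base windows of their annotated transcripts, 67.5% of Pgk1, 55.5% of Gapdh, 44.3% of Eno1 and 40.6% of Pgam1 also occurred in transcripts of other genes. Gapdh, usually among the most abundant transcripts, stood at only 6.99 to 10.0 CPM over the 6 cultures. For Pgam2 and Eno3, as for Pygm, Pygb and Slc2a4, this share was 0%. A ratio of Pgam2 to Pgam1 or of Eno3 to Eno1 may therefore overstate the muscle form. Alignments that were not unique numbered 0.724, 0.738 and 0.703 per uniquely mapped read with negative siRNA and 0.936, 1.07 and 1.13 with DNMT1 siRNA (exact permutation test, p = 0.1), and the part of this difference in the ratios was not tested.

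Ratios of isozymes within a library do not depend on how libraries are scaled to each other. Of 10 pairs compared, 5 did not overlap between the groups, 4 of them higher and 1 lower with DNMT1 siRNA. Other pairs of genes were not counted in this way, so the count has no baseline. The 4 higher pairs have Slc2a4, Pgam2, Eno3 and Pygm as numerators, genes that on their own did not overlap between the groups. Their ratios are therefore not separate from the results for those genes. Each of the 5 had p = 0.1 in a two-sided exact permutation test, the smallest p that 3 cultures against 3 allow, and an adjusted p of 0.2 over the 10 pairs, so that none could pass a limit of 0.05. The count ratio of Pgam2 to Pgam1 was 1.27, 1.07 and 1.09 with negative siRNA and 4.38, 3.50 and 3.29 with DNMT1 siRNA, a difference of 1.69 on the log2 scale and 1.65 without negative siRNA replicate 2. The count ratio of Eno3 to Eno1 was 0.691, 0.559 and 0.752 with negative siRNA and 1.68, 1.46 and 1.22 with DNMT1 siRNA, a log2 difference of 1.12, or 1.00 without replicate 2. The count ratio of Pygm to Pygb was 0.0902, 0.123 and 0.114 with negative siRNA and 0.226, 0.202 and 0.174 with DNMT1 siRNA, a log2 difference of 0.88, or 0.97 without replicate 2. Leaving out a culture cannot create overlap between groups that had none, so the non-overlap without replicate 2 is no separate evidence. The log2 differences of these ratios stayed positive and of similar size without replicate 2. The muscle forms of aldolase and phosphofructokinase did not follow, with overlapping ratios of Aldoa to Aldoc (log2 difference -0.35, or -0.64 without replicate 2), Pfkm to Pfkl (0.35, or 0.015 without it) and Pfkm to Pfkp (0.07, or -0.12 without it).

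**Figure D4:**
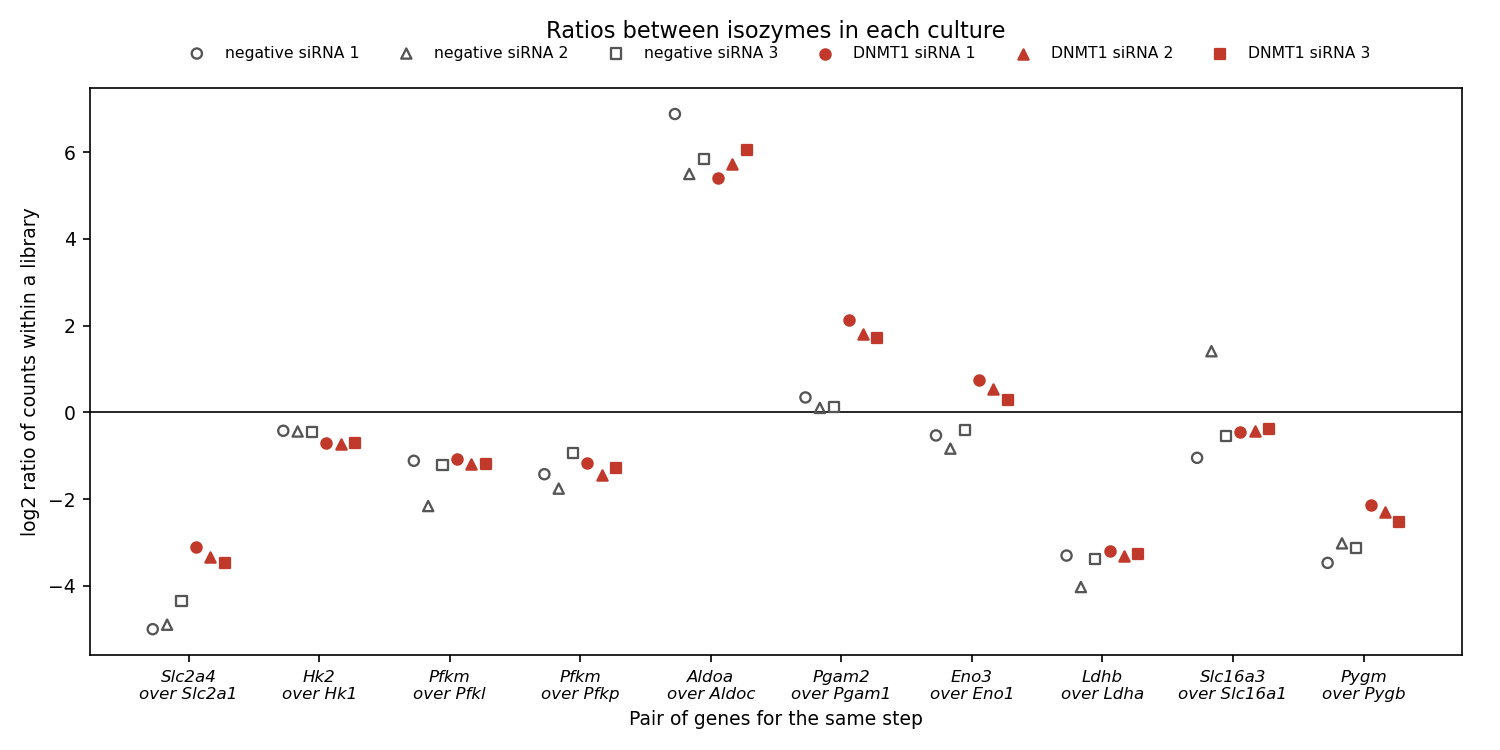
Log2 ratio of the counts of 2 genes for the same step (x axis) within each library (y axis). Each point is 1 culture, open grey for negative siRNA and filled red for DNMT1 siRNA. Pgam2 over Pgam1 goes from a mean of 0.19 with negative siRNA to 1.89 with DNMT1 siRNA, and Hk2 over Hk1 from -0.44 to -0.71.

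Of the 8 genes of lactate and pyruvate handling, 0 were called by edgeR or DESeq2, and 4 were higher and 0 lower at an unadjusted p below 0.05. Slc16a1, the lactate importer and exporter MCT1, was at 108, 105 and 108 CPM with negative siRNA and at 145, 126 and 136 CPM with DNMT1 siRNA. It passed the adjusted p limit alone, with a log2FC of 0.34 (SE 0.07, edgeR adjusted p = 0.020), and 0.33 (adjusted p = 0.015) without negative siRNA replicate 2. Slc16a3, the lactate exporter MCT4 of glycolytic cells, was at 52.4, 279 and 73.7 CPM with negative siRNA and at 107, 92.6 and 104 CPM with DNMT1 siRNA. Its log2FC was -0.42 (SE 0.54, adjusted p = 0.64) and became 0.68 (SE 0.13, adjusted p = 0.0095) without replicate 2, which turned the direction and passed both limits. The log2 ratio of Slc16a3 to Slc16a1 likewise differed by -0.36 in all cultures and by 0.37 without replicate 2.

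Lactate dehydrogenase joins pyruvate and lactate, with Ldha the main subunit of skeletal muscle and Ldhb that of adult heart. Ldha was at 251, 558 and 260 CPM with negative siRNA and at 351, 326 and 330 CPM with DNMT1 siRNA, with log2FC values of -0.09 (SE 0.28, adjusted p = 0.87) and, without replicate 2, 0.39 (SE 0.06, adjusted p = 0.0031). Ldhb was at 25.4, 34.2 and 24.9 CPM and at 38.2, 32.8 and 34.5 CPM, with log2FC values of 0.32 (adjusted p = 0.16) and 0.48 (adjusted p = 0.0076). The per-length ratio of Ldhb to Ldha was 0.182 ± 0.0458 (SD, n = 3) with negative siRNA and 0.221 ± 0.00874 with DNMT1 siRNA, and the groups overlapped (exact permutation test, p = 0.2, adjusted p = 0.33 over the 10 pairs). The log2 difference of the ratio was 0.31, and 0.084 without replicate 2. Ldha RNA was thus more abundant than Ldhb RNA in all 6 cultures, and protein was not measured.

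Pdha1, a subunit of pyruvate dehydrogenase, and the kinases Pdk1, Pdk2 and Pdk3 that inhibit that enzyme decide how much pyruvate enters the citric acid cycle. Pdha1 was at 125, 124 and 124 CPM with negative siRNA and at 144, 136 and 139 CPM with DNMT1 siRNA, without overlap, but the log2FC was 0.17 (SE 0.06, adjusted p = 0.10). Pdk1 was at 20.5, 76.0 and 24.8 CPM and at 39.6, 37.1 and 38.4 CPM. Its log2FC of -0.07 (SE 0.44, adjusted p = 0.93) became 0.76 (SE 0.10, adjusted p = 0.0013) without replicate 2. Pdk2 was at 15.1, 25.1 and 20.0 CPM and at 31.7, 27.9 and 26.9 CPM, without overlap, with log2FC values of 0.52 (SE 0.17, adjusted p = 0.085) and 0.72 (SE 0.13, adjusted p = 0.0073). Pdk3 was at 64.0, 78.5 and 65.3 CPM and at 63.8, 65.1 and 80.1 CPM, a log2 difference of 0.01 (SE 0.12).

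Of the 5 glycogen genes, 1 was called higher, Pygm, and 0 lower. Pygb, the phosphorylase isozyme first known from brain, was far more abundant than Pygm per kilobase, at 43.0 ± 5.41 against 7.11 ± 1.93 CPM per kb (SD, n = 3) with negative siRNA and 54.1 ± 3.03 against 16.3 ± 2.97 with DNMT1 siRNA. Pygb was at 181, 234 and 205 CPM with negative siRNA and at 277, 255 and 249 CPM with DNMT1 siRNA, without overlap, with log2FC values of 0.33 (SE 0.10, edgeR adjusted p = 0.062) and, without replicate 2, 0.43 (SE 0.08, adjusted p = 0.0060). Gys1, the glycogen synthase of muscle, was at 74.4, 143 and 95.2 CPM and at 103, 101 and 98.7 CPM, with log2FC values of -0.04 (adjusted p = 0.91) and 0.25 (adjusted p = 0.11). Ugp2, which makes UDP-glucose for that enzyme, and Phka1, the muscle regulatory subunit of phosphorylase kinase, had log2FC values of -0.11 (SE 0.07) and 0.02 (SE 0.08).

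Together, the 37 genes took 0.309%, 0.528% and 0.318% of the counts on genes with negative siRNA and 0.398%, 0.369% and 0.360% with DNMT1 siRNA. The means of 0.385% ± 0.124 and 0.376% ± 0.0200 (SD, n = 3) differed by less than the spread between the negative siRNA cultures (exact permutation test, p = 1.0). Against the mean of 0.313% of negative siRNA replicates 1 and 3, all 3 DNMT1 siRNA cultures were higher. This order depended on the denominator. Of all uniquely mapped reads, those on no gene included, the 37 genes took 0.244%, 0.432% and 0.252% with negative siRNA and 0.277%, 0.230% and 0.222% with DNMT1 siRNA, a difference of means of -0.0659 percentage points (exact permutation test, p = 0.5), and DNMT1 siRNA replicates 2 and 3 were below the mean of 0.248% of negative siRNA replicates 1 and 3. The spread also differed between the groups, with a median SD of log2 CPM over the 37 genes of 0.40 with negative siRNA and 0.063 with DNMT1 siRNA, where all genes had 0.18 and 0.099. Per kilobase the order with DNMT1 siRNA began with Aldoa (167 ± 5.61 CPM per kb, SD, n = 3), Ldha (101 ± 4.01), Pkm (101 ± 2.95), Tpi1 (72.5 ± 4.33), Pygb (54.1 ± 3.03) and Eno3 (49.8 ± 6.70), in which Ldha and Pkm, and Pygb and Eno3, did not differ beyond their spread. It ended with Slc2a4 (2.62 ± 0.423), Gapdh (2.16 ± 0.345), Pfkfb2 (1.94 ± 0.0476), Pfkfb4 (0.752 ± 0.0234) and Pfkfb1 (0.606 ± 0.00820), in which Slc2a4 and Gapdh, and Gapdh and Pfkfb2, overlapped. Neighbouring ranks depend on the length used, here that of all annotated exons. It was 2753 bases for Tpi1 and 3310 for Ldha, whose protein-coding transcripts held 1689 and 2922 distinct 75-base windows. The rank of Gapdh also rests on counts without the reads that mapped to more than 1 place.

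The cardiomyocyte markers were higher with DNMT1 siRNA, and the called genes were therefore also expressed per 1000 counts on the 10 cardiomyocyte markers of the same library, a scale chosen after the data were seen. On this scale Pgam2 was at 5.92, 7.66 and 4.68 with negative siRNA and at 7.74, 6.47 and 7.10 with DNMT1 siRNA, a log2 difference of 0.25 with overlapping groups (exact permutation test, p = 0.3). Pygm was between 8.76 and 11.7 with negative siRNA and between 10.2 and 12.1 with DNMT1 siRNA, a log2 difference of 0.05 (exact p = 0.8), and Slc2a4 differed by 0.02 (exact p = 0.9). Eno3 turned in direction, at 19.9, 25.1 and 18.6 with negative siRNA and 19.0, 17.1 and 17.7 with DNMT1 siRNA, a log2 difference of -0.23 (exact p = 0.2). Relative to these markers, Pygb, Hk1 and Slc16a1 were lower in all 3 DNMT1 siRNA cultures, with log2 differences of -0.83, -0.70 and -0.83 (exact p = 0.1 each, the smallest possible). The markers themselves include genes called higher, so that this scale gives the level of a gene relative to them and not a level per cell. Since their sum rose, the scale moves every gene down by a similar amount. A gene that rose less than the markers must come out lower, so these turns restate the rise of the markers.

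**Figure D5:**
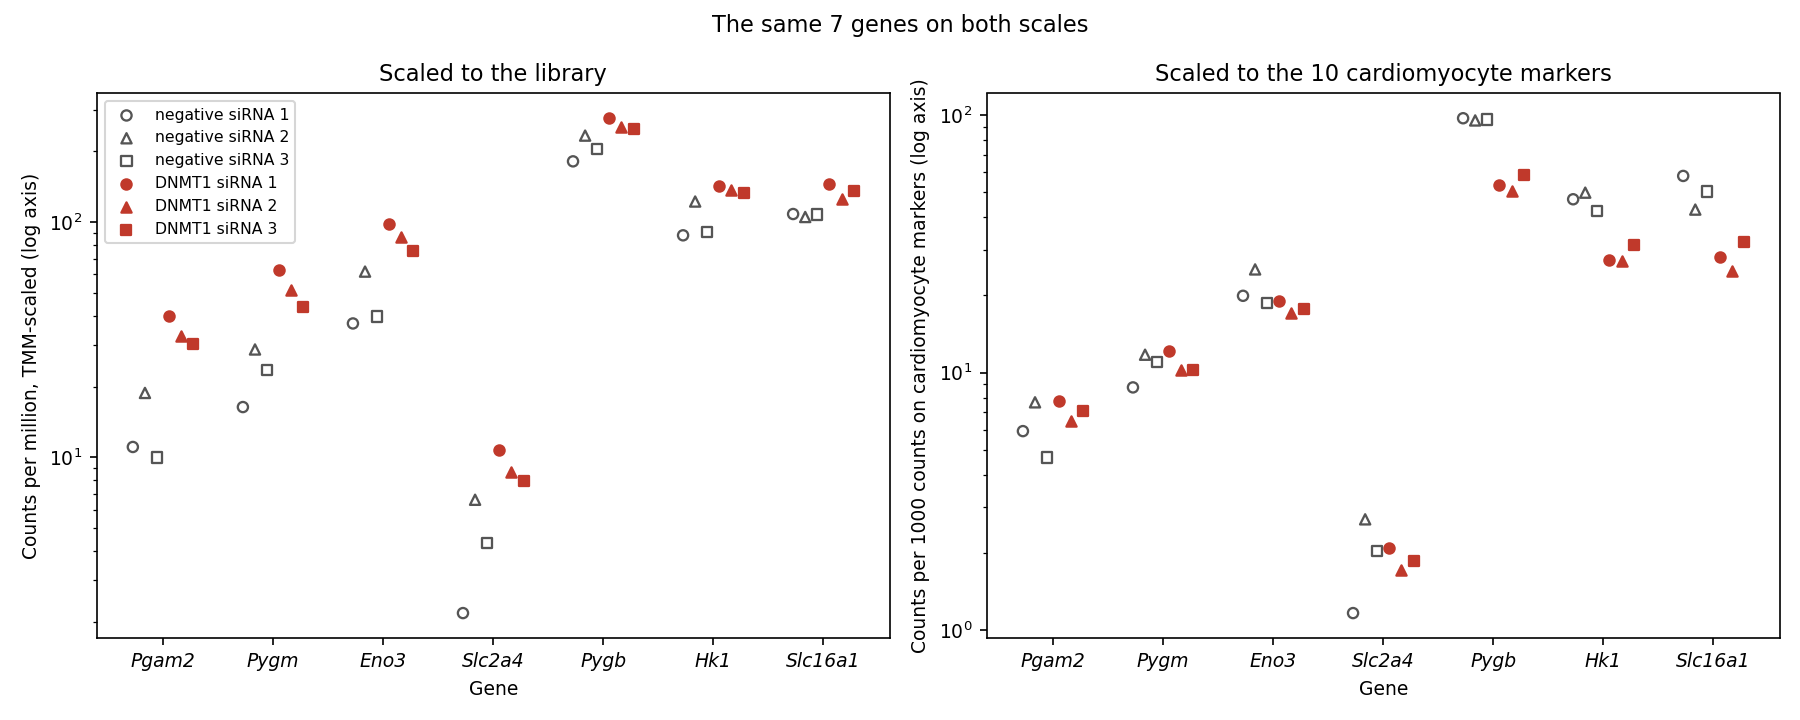
The 3 called genes and 4 others (x axis) in each culture, as CPM (left, log axis) and per 1000 counts on 10 cardiomyocyte markers of the same library (right, log axis). Open grey points are negative siRNA cultures and filled red points DNMT1 siRNA cultures. Pgam2, Pygm, Eno3 and Slc2a4 do not overlap between the groups on the left and do on the right, while Pygb, Hk1 and Slc16a1 change from higher to lower.

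A further 108 genes of glucose metabolism and its control were examined, of which 98 passed the filter. By edgeR 5 of them (5.10% of those tested) were called higher, close to the 4.26% of all genes, and 0 lower, against 2.23%, with 19 higher and 10 lower at an unadjusted p below 0.05, and DESeq2 called 5 higher and 1 lower. Without negative siRNA replicate 2, edgeR called 8 of 97 higher, against 5.42% of all genes, and 0 lower, against 2.78%. The 5 called in all cultures were Ppp1r3a, Tbc1d4, Prkaa2, Prkab2 and Pdk4. Ppp1r3a, which brings protein phosphatase 1 to glycogen in striated muscle, was at 3.52, 8.89 and 3.76 CPM with negative siRNA and at 22.0, 16.6 and 16.0 CPM with DNMT1 siRNA, a log2FC of 1.76 (SE 0.34, edgeR adjusted p = 0.016) and the largest among the members and these lists. Without negative siRNA replicate 2 it was 2.33 (SE 0.17, adjusted p = 1.2e-04). Tbc1d4, the Rab GTPase-activating protein that holds GLUT4 vesicles inside the cell, was at 8.41, 9.81 and 6.45 CPM and at 17.7, 16.8 and 13.9 CPM, a log2FC of 0.97 (SE 0.17, adjusted p = 0.011).

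Prkaa2 and Prkab2 encode the muscle forms of the catalytic and a regulatory subunit of AMP-activated protein kinase, an energy sensor. Prkaa2 was at 33.1, 32.1 and 31.6 CPM with negative siRNA and at 60.0, 64.9 and 55.1 CPM with DNMT1 siRNA, a log2FC of 0.90 (SE 0.08, edgeR adjusted p = 9.3e-04). Prkab2 was at 74.3, 80.6 and 88.2 CPM and at 133, 131 and 132 CPM, a log2FC of 0.70 (SE 0.08, adjusted p = 0.0018). In these 2 genes the negative siRNA cultures lay close together, replicate 2 included. Pdk4, the pyruvate dehydrogenase kinase of fasting and of fatty acid oxidation, was at 4.73, 5.59 and 3.83 CPM and at 7.41, 7.18 and 7.83 CPM, a log2FC of 0.66 (SE 0.17, adjusted p = 0.039).

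By list, and against the same 4.26% of all genes, 1 of 13 further genes of pyruvate entry was called (Pdk4, 7.69%), 1 of 18 further glycogen genes (Ppp1r3a, 5.56%) and 3 of 21 genes of insulin signalling, GLUT4 handling and AMP-activated protein kinase (14.3%). Of 16 further genes of glycolysis and glucose transport, 8 of the pentose phosphate pathway and 22 of hypoxia and MYC signalling, 0 were called by edgeR, where DESeq2 called 1 lower in the first of these lists, and an unadjusted edgeR p below 0.05 was found for 1 higher and 1 lower, 2 higher and 2 higher. The mitochondrial pyruvate carrier genes had log2FC values of -0.39 (Mpc1, SE 0.25) and 0.06 (Mpc2, SE 0.15). Txnip, a glucose-induced brake on glucose uptake, was at 137, 395 and 261 CPM with negative siRNA and at 179, 162 and 177 CPM with DNMT1 siRNA, with overlap, a log2FC of -0.62 (adjusted p = 0.23) and of -0.20 (adjusted p = 0.56) without replicate 2. Hif1a and Myc, which encode inducers of glycolytic genes, had log2FC values of -0.14 (SE 0.07, adjusted p = 0.23) and -0.16 (SE 0.08, adjusted p = 0.25).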

How the data were processed

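Poly(A) RNA-Seq was available for 6 libraries, 3 per group, sequenced in a single run. Per the study's methods and the submitters' processing notes, the authors checked reads with FastQC, aligned them to mm10 with TopHat2 and counted reads per gene with HTSeq, and the deposited values are raw counts per gene. HTSeq's rows for unassigned reads were left out of library sizes and of the tests per gene (14.6% to 32.0% of uniquely mapped reads on no gene and 3.58% to 6.35% on more than 1 gene). The library kit is not stated to keep strand, so overlapping genes on opposite strands may share reads. The members and gene lists were chosen with earlier results of these data known. All members are named, with in addition the genes called in the pathway lists, Pdk4, Mpc1, Mpc2, Txnip, Hif1a, Myc and Dnmt1.

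Counts were tested with edgeR 4.0.16 (R 4.3.3, TMM, filterByExpr with a minimum count of 10 and a total of 15, quasi-likelihood F test without a block), with Benjamini-Hochberg adjustment over 15470 genes, and called at an FDR below 0.05 and a fold change above 1.5. The SE was taken as |log2FC| over the root of the F statistic. The script was tested on simulated counts. Levels of different genes were compared as TMM-scaled CPM per kilobase of exon, with all annotated exons of a gene merged. This replaced the TPM-like level first planned, since the sum of the length-scaled counts differed between the groups. Isozyme ratios and shares were compared with two-sided exact permutation tests (scipy 1.17.1). Annotation came from GENCODE M21 (GRCm38), which held 42548 of the 43629 gene identifiers, and 197 of 197 symbols of the lists were matched. Promoters are the 250 bases before RefSeq starts (GRCm38.p6), found for 35 of 37 members. Alternatives were RLE, upper quartile and total count scaling, no filter, DESeq2 1.42.0, a replicate block, thinning to the smallest library, other limits and leaving out each culture. Counts limit the precision of low genes such as Slc2a4.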

Additional observations from a re-analysis of the deposited data

Results flagged for a closer look

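Reads outside the genes differed between the groups and entered the comparisons above only as part of the uniquely mapped reads used as a denominator. Uniquely mapped reads on no annotated gene made up 17.5%, 14.6% and 17.1% with negative siRNA (mean 16.4%) and 24.4%, 31.5% and 32.0% with DNMT1 siRNA (mean 29.3%), higher in all 3 DNMT1 siRNA libraries (exact permutation test, p = 0.1, the smallest possible with 3 against 3). Uniquely mapped reads that lay on more than 1 gene made up 3.58%, 3.62% and 3.65% with negative siRNA (mean 3.62%) and 6.02%, 6.09% and 6.35% with DNMT1 siRNA (mean 6.15%), again higher in all 3 (exact p = 0.1). Both were noted because the signal lay outside the measured genes and above the level of the control libraries.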

How the results depend on the processing

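The number of members called higher was 3 with RLE, total count and upper quartile scaling, thinning and the replicate block, 4 without a filter and with DESeq2, 2 at an FDR of 0.01 and 5 with no fold limit, and ranged from 0 to 8 when 1 culture was left out; the number called lower was 0 in each. Members past the FDR alone as higher numbered 9 without a filter, 8 with DESeq2 and 2 at an FDR of 0.01 (0 to 18 with a culture left out), and 7 were past it as lower without a filter. Among all genes, 994 of 31775 were called higher and 701 lower without a filter, against 659 and 345 of 15470 in the main fit. The share of all genes past the FDR alone was counted only in the main fit and, as higher, without negative siRNA replicate 2. Other counts past the FDR alone thus have no baseline. Pathway genes called higher numbered 2 at an FDR of 0.01 and 10 with no fold limit (2 to 8 with a culture left out), and those called lower 1 with total counts, 7 without a filter, 1 with DESeq2 and 2 with no fold limit (0 to 5, with 5 without negative siRNA replicate 1). The cause was not tested. Same-numbered cultures of the groups had correlations of deviations between -0.021 and 0.027. The counts thus showed no pairing by number, which cannot exclude that such cultures shared an origin. With the replicate block 4 members were past the FDR alone. The block turned Ldha (0.022), Pdk1 (0.18) and Gys1 (0.0083). Near-zero log2 fold changes turned for Pfkfb1 on thinning (0.046) and with total counts, no filter and DESeq2 for Aldoc (-0.0006, -0.0037 and -0.0036), Pdk3 (-0.034, -0.025 and -0.019) and Phka1 (-0.016, -0.0062 and -0.0016). Relative to cardiomyocyte markers Eno3 (-0.23), Pygb (-0.83), Hk1 (-0.70) and Slc16a1 (-0.83) turned, and with all uniquely mapped reads as denominator so did the shares of upper glycolysis (-0.0070 percentage points) and glycogen (-0.0030).

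Leaving out 1 culture at a time turned the log2 fold change of Aldoa (-0.29 to 0.16), Aldoc (-0.36 to 0.77), Eno1 (-0.45 to 0.17), Eno2 (-0.46 to 0.028), Gys1 (-0.24 to 0.25), Ldha (-0.28 to 0.39), Pdk1 (-0.40 to 0.76), Pdk3 (-0.12 to 0.11), Pfkfb1 (-0.079 to 0.065), Pfkfb3 (-0.44 to 0.086), Pfkl (-0.55 to 0.41), Pfkp (-0.068 to 0.56), Pgam1 (-0.53 to 0.046), Pgk1 (-0.71 to 0.058), Phka1 (-0.0045 to 0.080), Pkm (-0.30 to 0.048), Slc16a3 (-0.80 to 0.68), Slc2a1 (-0.67 to 0.18) and Tpi1 (-0.38 to 0.38). It turned the log2 ratios of Aldoa to Aldoc (-0.64 to 0.050), Pfkm to Pfkp (-0.12 to 0.29) and Slc16a3 to Slc16a1 (-0.85 to 0.37), and the differences in share, in percentage points, of all members (-0.0472 to 0.0625), transporters (-0.0043 to 0.0024), upper glycolysis (-0.0025 to 0.0169), PFKFB regulators (-0.0019 to 0.0004), lower glycolysis (-0.0310 to 0.0154) and lactate and pyruvate genes (-0.0121 to 0.0177). Of the 37 members, 15 turned without negative siRNA replicate 2.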

Other observations

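The letters of the hypoxia response element, ACGTG or GCGTG on either strand, were present in 40 of the 55 member promoters (72.7%) and in 38.6% of all RefSeq promoters of the same 250 bases. Each such match holds a CG dinucleotide, and the member promoters held more of these (median 13 against 6). The E-box CACGTG, which overlaps the first of these motifs, was present in 6 of the 55 (10.9%) and in 6.02% of all. The MEF2 consensus, the motif of a family of muscle transcription factors, was present in 2 of the 55 (3.64%), 1 of them that of Pgam2, and in 1.69% of all. A match describes letters in this window only.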
